A study of Mus musculus with 12 samples.

Results

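The genes described here are the 42 members of the DNA replication machinery, from the helicase that opens the origin to the enzymes that supply deoxynucleotides. They were chosen by their symbols, and all 42 were found among the 30743 rows of the deposited table. The study set whole livers of 6 HFD fetuses against whole livers of 6 control fetuses, all male C57BL/6J mice at 15 ± 0.5 dpc. The dams had eaten a high-fat diet with 60% of its calories as fat, or a control diet with 13.5%, for 12 to 14 weeks. A whole liver of this age holds hepatoblasts together with a large population of dividing blood cells, so a level in it is a mean over cell types, in which fewer cells of a type and less RNA per cell cannot be told apart. The table gives no value for a single liver. Each level below is the authors' average over all 12 livers, without an SD and without a split by diet, and it does not describe an effect of HFD.

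DNA replication starts where the origin recognition complex (ORC), Cdc6 and Cdt1 load a ring of MCM proteins onto the chromosome in G1. In S phase Cdc45 and the GINS complex turn the ring into an active helicase, polymerase alpha with primase lays down primers, polymerases delta and epsilon extend them on the sliding clamp PCNA, and RPA covers the single strands. E2F factors switch many of these genes on as a cell commits to S phase, and the fetal liver, which produces red blood cells at this age, is known for intense cell division.

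The replication genes were listed at high levels as a group, with wide gaps between single genes. Levels are in CPM, the reads of a gene scaled to the size of its library. The median of the 42 was 44.3 CPM (5.46 on the log2 scale), against 0.222 CPM over all rows, 1.15 CPM over the 19652 rows with reads and 2.00 CPM over the protein-coding rows with reads. Of the 42 genes, 33 lay above 1 CPM (78.6%), as did 33.1% of all rows and 45.4% of the protein-coding rows. Above 16 CPM lay 24 of the 42 (57.1%), against 15.5% of all rows and 22.8% of the protein-coding rows. The remaining 18 genes reached down to Orc1 and Orc6, which were listed without reads. Among the 40 with reads, the level in CPM ran from 1304 for Rrm2, at percentile 99.7 of the rows with reads, to 0.203 for Fen1, at percentile 18.8.

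**Figure D1:**
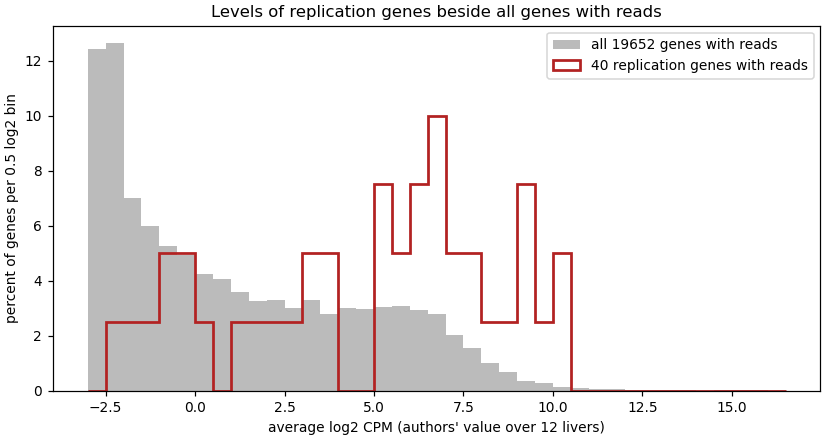
Histogram of the authors' average log2 CPM over 12 livers (x axis) as the percent of genes in each bin (y axis), for all 19652 genes with reads (grey) and the 40 replication genes with reads (red outline). Most replication genes lie to the right of the bulk of the genes, with a second, smaller part below 1 CPM (0 on the log2 scale).

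Genes that every cell uses were listed over a wide range as well. Ppia, the gene of cyclophilin A, had 0.165 CPM, near the lowest value of 0.152 CPM, Tbp, the TATA-binding protein, 0.638 CPM, and Gapdh, a glycolytic enzyme, 5.20 CPM. In the same list Actb had 2581 CPM, Eef1a1 5951 CPM, Tuba1b 418 CPM and Hprt 298 CPM. These 7 genes were chosen after their values were seen. RefSeq gives Gapdh 2 transcripts, and Ppia, Tbp, Actb, Eef1a1, Tuba1b and Hprt 1 each. The share of genes at high levels moved with the number of mRNA transcripts that RefSeq gives a gene. Of the 11286 protein-coding rows with 1 transcript, 29.0% lay above 16 CPM, against 15.0% of 3610 with 2, 12.4% of 1626 with 3 transcripts and 9.23% of 1841 with 4 or more. Rows without reads went the other way, at 24.4% of those with 1 transcript, 19.2% with 2, 18.2% with 3 and 17.5% with 4 or more. The share above 16 CPM also moved with the bases of a gene that belong to 1 transcript alone. Only RefSeq transcripts paired with the GENCODE annotation were counted for this. The share was 28.0% where every base did, and 4.67% where at most 25% of the bases did. A gene with several RefSeq transcripts of which only 1 was paired counts among the former. Among the replication genes these are Mcm7, Gins1, Pold2, Rfc1 and Tk1.

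The replication genes stood in the same order. Of the 26 with 1 RefSeq transcript, 18 lay above 16 CPM and their median was 83.2 CPM. Of the 16 with 2 or more, 6 lay above 16 CPM and their median was 10.9 CPM. Among the 18 genes at 16 CPM or less, 10 had 2 or more transcripts and 8 had 1, namely Orc1, Rfc4, Gmnn, Tyms, Rfc3, Cdt1, Pold1 and Pole2. The part of transcript number in any single level was not tested, and the number of transcripts is given beside the low values below.

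**Figure D2:**
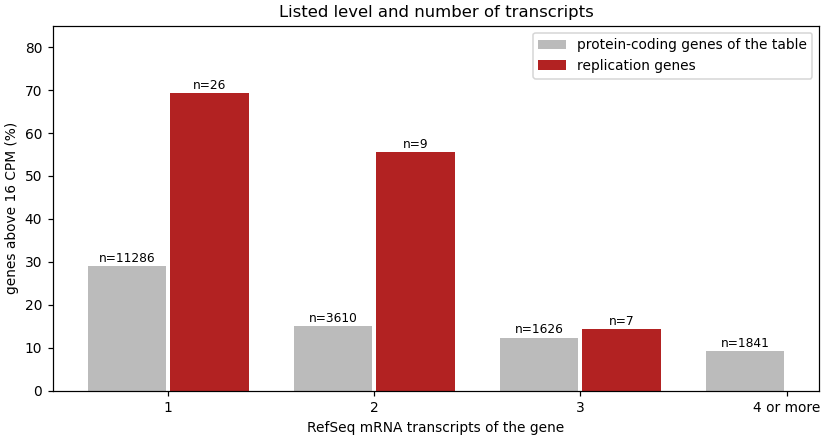
Percent of genes above 16 CPM (y axis) by the number of RefSeq mRNA transcripts of the gene (x axis), for the protein-coding genes of the table (grey) and the replication genes (red), with the number of genes over each bar. The share is highest for genes with 1 transcript in both sets, 29.0% and 69.2%.

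The E2F motif, which the choice of genes did not use, was found in the promoters of a minority of the replication genes, a larger share than among all promoters, with no test made. RefSeq windows of 300 bases, from 250 before to 50 after the start, were at hand for 33 of the 42 genes, 38 windows in all. The motif was spelled TTTCCCGC, TTTGGCGC, TTTCGCGC or TTTGCCGC on either strand, and 12 of the 38 windows held it (31.6%), each from a different gene. Among the windows of protein-coding genes, 2.93% of 17970 held it, and of all 32851 windows 2.26%. With only the last 6 letters of each spelling, the shares were 81.6% and 47.1%. The 12 windows held 17 matches, from 161 bases upstream to 43 bases downstream of the start. They belonged to Cdc6, Cdt1, Gins3, Lig1, Mcm3, Mcm6, Mcm7, Orc1, Pola1, Pold1, Pole2 and Rfc3. One match from each of 9 of these genes is shown, so that every role with a match is represented. The sequences run along the gene from 5′ to 3′ on GRCm38.p6 and mark 1 match each, in either direction, in capitals. In Rfc3 another match, TTTCGCGC, stands in lower case just before it.
Mcm3 (chr1:20820275-20820304, minus strand): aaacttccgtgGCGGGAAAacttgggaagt
Mcm6 (chr1:128359734-128359763, minus strand): gattggacgggTTTGGCGCgaagtagctca
Gins3 (chr8:95633507-95633536, plus strand): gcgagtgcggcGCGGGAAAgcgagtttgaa
Orc1 (chr4:108579416-108579445, plus strand): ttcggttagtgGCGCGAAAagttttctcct
Cdc6 (chr11:98908002-98908031, plus strand): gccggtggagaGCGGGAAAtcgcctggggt
Pola1 (chrX:93632275-93632304, minus strand): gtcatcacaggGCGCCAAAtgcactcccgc
Pole2 (chr12:69228162-69228191, minus strand): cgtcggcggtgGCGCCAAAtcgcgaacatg
Rfc3 (chr5:151651190-151651219, minus strand): ctttcgcgctcGCGGGAAAactctactgtc
Lig1 (chr7:13278841-13278870, plus strand): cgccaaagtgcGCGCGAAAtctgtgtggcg

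The matches lay at various distances from the start, which is the RefSeq start here. Gene positions given below are from GENCODE, whose starts can differ. In Orc1, Gins3 and Cdc6 the match shown lies downstream of the GENCODE start. In Rfc3 the middle of the match shown was 4 bases downstream of it, in Orc1 23 bases upstream, in Gins3 37 bases upstream and in Mcm6 43 bases upstream. In Cdc6 and Pola1 it was 134 bases upstream. Mcm6 held 3 matches, and Mcm3, Mcm7 and Rfc3 held 2 each. Of the 12 genes with a match 4 lay above 16 CPM, and of the 21 genes with a window and no match 13 did, which is given as counts only. Pcna, Rrm2 and Mcm2, which stood among the highest genes, had a window without these spellings, which says nothing about E2F at those genes.

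Other motifs were nearer to the background. The CCAAT box (CCAAT), the site of NF-Y, was in 55.3% of the 38 windows and in 38.1% of the windows of protein-coding genes, and the GC box (GGGCGG) in 73.7% and 48.7%. The GC box can share letters with the E2F motif, so 1 stretch can count for both. The CHR element (TTTGAA), known from genes of mitosis, was in 13.2% against 15.0%, and the TATA box (TATAAA) in 7.89% against 12.2%. The windows of the replication genes were also richer in CG pairs, with a median ratio of observed to expected CG of 0.860 against 0.602 and a median GC content of 60.7% against 57.3%. The part of base composition in the motif shares was not tested.

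**Figure D3:**
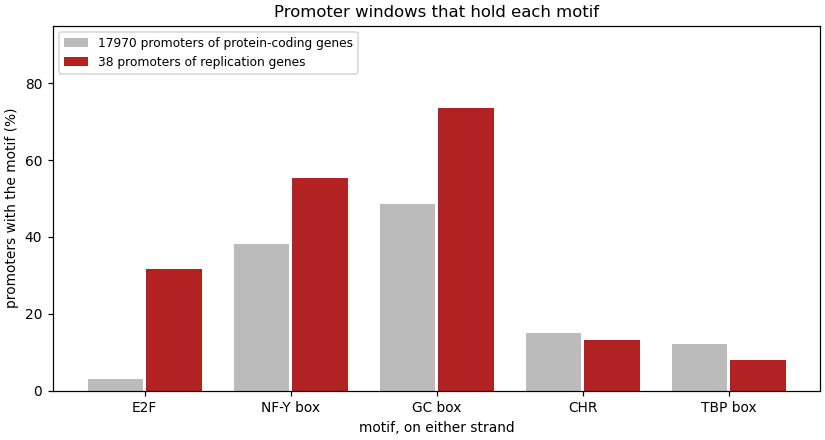
Percent of promoter windows (y axis) that hold each motif on either strand (x axis), for 38 windows of replication genes (red) and 17970 windows of protein-coding genes (grey). The NF-Y box is CCAAT and the TBP box is TATAAA. The E2F motif stands at 31.6% against 2.93%, while CHR stands at 13.2% against 15.0%.

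The MCM genes encode the ring-shaped helicase, in which each subunit is present once. Mcm2, Mcm3, Mcm4 and Mcm7 were listed within a narrow band of levels per length, and Mcm6 far below them. In CPM per kilobase of exon, Mcm4 had 169, Mcm3 164, Mcm2 123 and Mcm7 104. Mcm6, with 2 RefSeq transcripts and 33.9% of its bases in 1 transcript alone, had 2.31. The order depended on the length used. Per kilobase of coding sequence, Mcm2 had 317 CPM, Mcm3 253, Mcm4 235, Mcm7 213 and Mcm6 4.38. Per kilobase of exon, the ratio of Mcm4 to Mcm6 was 73.2. Among the 3 subunits with 1 transcript the highest was then 1.37 times the lowest. Mcm7, with 3 transcripts, stood with these and not with Mcm6. Only 1 of the 3 transcripts of Mcm7 was paired with GENCODE, so its share of bases in 1 transcript counts as 100%. Mcm4 lies on chromosome 16 of GRCm38 from 15623897 to 15637400, head to head with Prkdc, the DNA-dependent protein kinase, whose start is 466 bases away. Mcm2 lies on chromosome 6 from 88883474 to 88898780 and Mcm6 on chromosome 1 from 128331590 to 128359664. Of the exon bases of Mcm7, 7.25% overlap Ap4m1 on the opposite strand, listed at 31.6 CPM. Mcm5, the subunit outside the 42 genes, was listed without reads and has 2 transcripts.

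The factors that activate the helicase had a lower median than the MCM genes, 16.8 against 123 CPM per kilobase, though Mcm6 lay below all of them but Mcm10. The GINS genes had 84.9 CPM per kilobase for Gins4, 21.2 for Gins1, 19.0 for Gins2 and 14.7 for Gins3, a ratio of 5.78 from highest to lowest in a complex that holds 1 copy of each. The order depended on the length used: per kilobase of coding sequence, Gins4 had 171 CPM, Gins2 139.9, Gins3 61.4 and Gins1 54.7, a ratio of 3.13. Cdc45, which joins GINS and MCM in the active helicase, had 3.15 CPM per kilobase, and Mcm10, which helps to start unwinding, had 1.58. Cdc45 has 3 transcripts and Mcm10 has 2, with 18.5% and 31.2% of their bases in 1 transcript alone. Over 67.3% of the exon bases of Gins2, the gene Gse1 is annotated on the opposite strand (6.15 CPM), and without strand the reads of the pair cannot be told apart.

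Origin licensing was the role with the lowest counts above 16 CPM, 0 of 5, together with Okazaki fragment maturation. Orc1, which binds the origin, and Orc6, the smallest ORC subunit, were listed without reads in the 12 livers. Cdt1, the loader of MCM, had 1.04 CPM per kilobase and Cdc6, its partner, 0.915, while Gmnn, the gene of geminin, which blocks Cdt1, had 0.459. In CPM these levels were 3.27 for Cdt1, 4.78 for Cdc6 and 0.672 for Gmnn. Orc1 lies on chromosome 4 from 108579423 to 108614833, has 1 transcript, and starts 87 bases from Prpf38a on the other strand. Orc6 has 2 transcripts and shares 6.93% of its exon bases with Vps35, listed at 463 CPM on the opposite strand. The ORC genes outside the 42 were listed unevenly as well: Orc2 was without reads, Orc3 had 1.44 CPM, Orc4 4.11 CPM and Orc5 158 CPM.

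Polymerase alpha and primase, which make the primers of both strands, were all 4 listed above 16 CPM. Prim1, the catalytic primase subunit, had 22.2 CPM per kilobase, Prim2, the large primase subunit, 16.6, Pola1, the catalytic subunit of polymerase alpha, 10.8, and Pola2, its accessory subunit, 4.78. The ratio of highest to lowest was 4.64, and 2.04 among the 3 with 1 transcript. This order too depended on the length used. Per kilobase of coding sequence, Prim1 had 68.3 CPM, Prim2 65.2, Pola2 22.0 and Pola1 21.7, a ratio of 3.14. Per kilobase of the longest transcript, Prim2 had 40.4 CPM and Prim1 27.4. In polymerase epsilon, which extends the leading strand, the catalytic gene Pole had 5.08 CPM per kilobase and the accessory gene Pole2 had 4.76, a ratio of 1.07. In polymerase delta, which extends the lagging strand, they stood apart: the accessory gene Pold2 had 59.2 CPM per kilobase and the catalytic gene Pold1 had 1.35, a ratio of 43.9. Pold1 has 1 transcript and Pold2 has 2, so this pair went against the order seen with transcript number. Only 1 transcript of Pold2 was paired with GENCODE, so by the share of bases in 1 transcript both genes count as 100%.

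Pcna, the sliding clamp, was second among the 42 genes per length, at 218 CPM per kilobase (524 CPM). It lies on chromosome 2 from 132249162 to 132253314. The annotation also holds pseudogenes named after Pcna, with which reads could be shared. The 5 genes of the clamp loader RFC, a ring with 1 copy of each subunit, were spread over a ratio of 279, or 959 per kilobase of coding sequence, with Rfc1, at 0.643 CPM, as the lowest. Rfc2 had 29.8 CPM per kilobase and Rfc5 17.3, against 0.612 for Rfc3, 0.191 for Rfc4 and 0.107 for Rfc1, the large subunit. Rfc1 has 3 transcripts, and the other 4, with 1 each, spanned a ratio of 156. Only 1 of the 3 transcripts of Rfc1 was paired with GENCODE, so its share of bases in 1 transcript counts as 100%, at a low level. Rfc4 shares 12.7% of its exon bases with Eif4a2 (42.6 CPM) on the opposite strand.

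RPA, the trimer that covers single-stranded DNA, was listed with 2 subunits at like levels and the third near the lowest value. Rpa2 had 52.8 CPM per kilobase and Rpa3 42.9, a ratio of 1.23. Rpa1, the large subunit, which makes most of the contacts with DNA, had 0.0669 CPM per kilobase, or 0.373 CPM, so close to the lowest value that its ratio to Rpa2 is loose: 789, or 1185 with the longest transcript and 1331 less the lowest value. Rpa1 has 2 transcripts and 44.0% of its bases in 1 transcript alone. Rpa1 lies on chromosome 11 from 75298166 to 75348324, and Rpa2 on chromosome 4 from 132768332 to 132778752. The genes that finish Okazaki fragments were both under 1 CPM: Lig1, DNA ligase 1, had 0.944 CPM and Fen1, the flap endonuclease, had 0.203 CPM. Each of them has 3 transcripts, with 15.9% and 7.17% of their bases in 1 transcript alone.

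The enzymes of deoxynucleotide supply held both the highest gene and 1 of the lowest. Ribonucleotide reductase makes deoxynucleotides from ribonucleotides, and its small subunit gene Rrm2 had 471 CPM per kilobase, its large subunit gene Rrm1 105, a ratio of 4.49. Rrm2, on chromosome 12 from 24708241 to 24714146, was the highest of the 42 per length, and Rrm1, on chromosome 7 from 102441695 to 102469771, had 1153 CPM before division by length. Tk1, thymidine kinase, which salvages thymidine in S phase, had 36.5 CPM per kilobase. Tyms, thymidylate synthase, which makes thymidylate from deoxyuridylate, had 0.119 CPM per kilobase (0.724 CPM) and has 1 transcript. The annotation holds a pseudogene of Tyms, with which reads could be shared.

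Among the genes of S phase entry, Ccne1 and Ccne2 encode cyclin E, the partner of Cdk2, and E2f1 a transcription factor of the motif above. Ccne1 had 111 CPM per kilobase, E2f1 42.7 and Ccne2 0.338. Ccne2 has 3 transcripts, 9.13% of its bases lie in 1 transcript alone, and 17.4% overlap Ints8 on the opposite strand (0.559 CPM). E2f1, with 2 transcripts and 26.0% of its bases in 1 transcript alone, stood above 16 CPM, at 135 CPM.

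**Figure D4:**
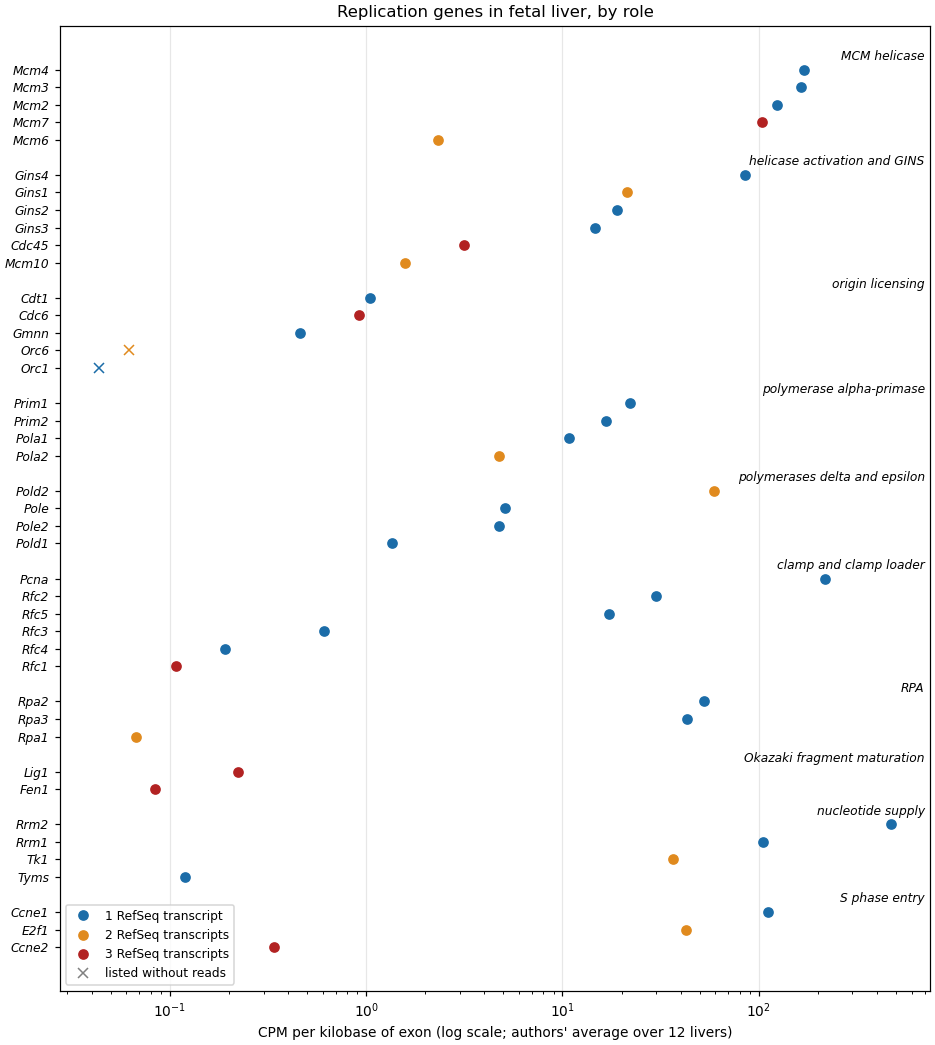
Level of each of the 42 replication genes in CPM per kilobase of exon (x axis, log scale), grouped by role and coloured by the number of RefSeq transcripts. Each point is 1 value, the authors' average over 12 livers, so there are no error bars, and crosses mark the genes without reads, placed at the lowest value divided by length. Mcm2, Mcm3, Mcm4 and Mcm7 stand together from 104 to 169, with Mcm6 to their left at 2.31. Rpa1, Rfc1 and Fen1 stand near the left end.

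By role, the median level was 123 CPM per kilobase for the MCM helicase, 70.6 for nucleotide supply, 42.9 for RPA and 42.7 for S phase entry. It was 16.8 for helicase activation with GINS, 13.7 for polymerase alpha-primase, 8.95 for the clamp and its loader and 4.92 for polymerases delta and epsilon. Origin licensing, at 0.459 with Orc1 and Orc6 taken at the lowest value, and Okazaki fragment maturation, at 0.153, came last. By the mean, nucleotide supply came first at 153 CPM per kilobase and the MCM helicase had 113. The clamp and its loader, with a mean of 44.4, then stood above RPA, with 31.9. Per kilobase of coding sequence, the middle genes of nucleotide supply were Tk1 at 271 CPM and Rrm1 at 485. Both lay above Mcm4, the middle MCM gene, at 235. The other roles were not ranked by this length. The order is a description of the table, since without values of single livers it cannot be said which neighbours differ beyond the spread between livers. It is an order of listed levels, which also moved with transcript number. Fen1 and Lig1 have 3 transcripts each, while in origin licensing Orc1, Cdt1 and Gmnn have 1. The part of transcript number in the order of the roles was not tested.

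In position, 6 of the 42 genes (14.3%) start head to head with another protein-coding gene, whose start lies at most 1000 bases upstream on the other strand, against 6.79% of 21951 protein-coding genes. They are Mcm4 with Prkdc, Gins1 with Abhd12, Orc1 with Prpf38a, Pole with Pxmp2, Rpa1 with Smyd4 and Rpa3 with Umad1. Exons of 12 of the 42 genes (28.6%) overlap those of another protein-coding gene, against 17.2% of all, and in all but Pole2 the largest such overlap is with the opposite strand.

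Of 54 further genes of replication and of S phase control, 53 were listed, 42 of them above 1 CPM and 30 above 16 CPM, with a median of 47.9 CPM. The highest per length were E2f4, a mainly repressive E2F (344 CPM per kilobase), E2f2, an activating one (252), Ccna2, the gene of cyclin A (245), Asf1b, a histone chaperone (127), and Dck, deoxycytidine kinase (122). Mcm5, Orc2, Tipin, a partner of Timeless at the fork, and Uhrf1, which keeps DNA methylation through replication, were listed without reads. RefSeq gives 2 transcripts for Mcm5, 3 for Orc2 and 4 each for Tipin and Uhrf1. Ticrr was not found under that symbol.

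Markers of cell division and of the tissue were listed high with some exceptions. Of 6 mitotic genes, 5 lay above 16 CPM, led by Mki67, the Ki-67 antigen, at 5568 CPM, while Bub1 had 1.69 CPM. Of the 6 hepatoblast and hepatocyte markers, Alb had 63314 CPM and Afp 54525 CPM, Apoa1 and Ttr were above 16 CPM, Dlk1 had 1.47 CPM and Hnf4a was listed without reads, with 3 transcripts. Of the erythroid markers, Klf1 had 692 CPM, Epor 224 CPM and Tfrc 33.8 CPM, and Hba-a1 and Hbb-bt were not found under those symbols. Above 16 CPM were also 2 of the 3 myeloid markers listed (Adgre1 was not found), 1 of 2 megakaryocyte, 1 of 3 endothelial and both stellate markers, but 0 of 3 B lineage and 0 of 3 acinar pancreas markers. The 4 genes of other tissues ranged from 0.152 to 0.731 CPM. Thus Alb, Afp, Apoa1 and Ttr of the liver markers, and Klf1, Epor and Tfrc of the red cell markers, lay above 16 CPM. Dlk1 and Hnf4a did not.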

How the data were processed

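PolyA RNA of 12 fetal livers, 6 from each diet, was sequenced from libraries made with a kit that does not mark strand. The authors trimmed reads with cutadapt 1.2.1 (per the submitters' processing notes), used Subread 1.3.6-p1 for alignment to mm10, took gene names through biomaRt and ran edgeR on the diets. The counting tool, the normalization and the version of the test are not given in the sources used here. The deposited table has 1 row for each of 30743 gene symbols. The value used here is the authors' average log2 CPM (counts scaled to library size) over all 12 libraries, identical in its 2 columns. The other columns hold log2 fold changes, signed fold changes, p-values and adjusted p-values of the authors' own comparison of the diets, once with a common and once with a tagwise dispersion, and were not used. The table gives no value for a single liver, so no level has an SD and no test was made. The diet test planned for counts of single livers was not run.

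Levels were converted to CPM and, to compare genes, divided by the kilobases of exon in the GENCODE M21 annotation (GRCm38, which is mm10), where all 42 genes were found. Ratios compare the highest with the lowest subunit of a complex. Genes without reads share the lowest value, 0.152 CPM. The depth of a library is not given in the sources used here. If the authors kept the usual prior count of 2, that value belongs to a mean normalized library of 13129752 reads. This was assumed, so counting intervals were not computed. Numbers of mRNA transcripts came from RefSeq on GRCm38.p6, which matched 18363 rows, and the bases held by 1 transcript from GENCODE transcripts paired with RefSeq mRNAs, which matched 18572 rows. Both are later than the study's own annotation. Promoter windows of 300 bases (250 before and 50 after the start) came from RefSeq on GRCm38.p6 and matched 33 of the 42 genes. Motifs were searched on both strands.

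All 42 genes are named. Of the other genes of the pathway, the 5 highest and the 3 lowest per kilobase are named, with Tipin, which is also listed without reads, and Orc3, Orc4 and Orc5 added after their values were seen. Of the erythroid markers, 1 is not reported here. The genes and lists were chosen with earlier results of these data known. The motif search and the count of bases were tested on simulated data. Python 3.11.15 was used with numpy 2.4.6 and pandas 2.3.3.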

Additional observations from a re-analysis of the deposited data

How the results depend on the processing

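Levels rest on 1 pooled value per gene, and no result had a test, so a value was taken as moved where it changed by more than 1.5 times. Against the median of 1.15 CPM over rows with reads, rows above 1 CPM gave 13.1 CPM and protein-coding rows 2.00 CPM. Other lengths moved 5 of the 8 ratios within complexes: the longest transcript gave 2.93 for polymerase alpha-primase, 1185 for RPA and 2.82 for ribonucleotide reductase, and the coding length gave 3.13 for GINS, 959 for RFC and 2.30 for ribonucleotide reductase. Subtracting the level of a gene without reads gave 1331 for RPA. The last 6 letters of the E2F motif were in 81.6% of the windows of replication genes, and in 47.1% of those of protein-coding genes. Genes with 1 RefSeq transcript alone, an alternative chosen after seeing the data, gave a median of 83.2 CPM for the replication genes and 4.997 CPM for protein-coding rows with reads, and ratios of 1.37 for MCM, 2.04 for polymerase alpha-primase, 156 for RFC and 1.23 for RPA, with no value for polymerase delta, which has 1 such subunit. The cause of these shifts was not tested. The last alternative holds fewer genes and leaves out Mcm6, Pola2, Rfc1 and Rpa1, each the lowest subunit of its complex. The other alternatives for these results stayed within 1.5 times. With the mean in place of the median, 3 of the 10 roles moved. With all 3 lengths, 8 genes stayed among the 10 highest and 10 among the 10 lowest. No paired analysis was possible because the table holds no value for a single liver, and for the same reason other normalizations, filters on low counts and leaving out livers were not run.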
